A study of Mus musculus with 12 samples.

Results

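The miR-106b-25 cluster is a group of microRNAs (miRNAs) read from a single intron of Mcm7, a gene for a subunit of the helicase that opens DNA for replication. The rule took the rows mmu-mir-106b-5p, mmu-mir-93-5p, mmu-mir-25-3p and mmu-mir-106b-3p, and all 4 were found among the 1251 rows of the deposited table. The rule used names only, not measured values, but it was chosen with earlier results of these data known. The values came from small RNA sequencing of 12 libraries of skin and skin tumours from C57Bl6 mice. Cutaneous squamous cell carcinoma (SCC) was taken from TAp63-/- mice (n = 4) and from wild-type (WT) mice (n = 2). These mice were over 35 weeks old and had received chronic ultraviolet radiation (UVR) of 2.5 kJ/m2, 3 times a week. Untreated dorsal skin was taken from TAp63-/- mice (n = 3) and from WT mice (n = 3) at the age of 4 weeks. TAp63 is the p63 isoform with the N-terminal transactivation domain, and TAp63-/- animals are called knockout below. How the knockout allele was made is not given in the sources used here, and a table of miRNAs cannot check the loss of TAp63. Tumours differed from skin in tissue, in age, in UVR and in the letters that start their titles, and these cannot be told apart here.

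As background, an miRNA guides the Argonaute protein to messenger RNAs, and pairs with them mainly through its seed, the stretch near its 5′ end. The 3 hairpins of this cluster are cut from the same primary transcript as the Mcm7 messenger RNA, and E2F factors, which switch on genes for DNA replication, drive Mcm7 in proliferating cells. In human cells miR-106b and miR-93 are known to repress CDKN1A, the cell-cycle inhibitor p21, and miR-25 to repress BCL2L11, the cell-death protein BIM. The cluster is a paralog of the miR-17-92 cluster, and often rises with it in tumours.

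The mature sequences are shown because the seed sets which other miRNAs of the table could act on the same sites. They come from RefSeq on GRCm38.p6, are written 5′ to 3′, and carry the seed, bases 2 to 8, in capitals. The first 4 share the seed AAAGUGC, and miR-17-5p and miR-20a-5p among them belong to miR-17-92.
miR-106b-5p: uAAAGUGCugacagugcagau
miR-93-5p: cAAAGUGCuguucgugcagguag
miR-17-5p: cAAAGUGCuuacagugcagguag
miR-20a-5p: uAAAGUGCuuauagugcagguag
The next pair shares the seed AUUGCAC, and RefSeq gives the same miR-92a-3p for Mir92-1 of miR-17-92 and for Mir92-2 of miR-106a-363.
miR-25-3p: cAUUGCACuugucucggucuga
miR-92a-3p: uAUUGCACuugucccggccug
The remaining arm has the seed CGCACUG. Of the 1251 rows, 1001 matched a RefSeq sequence, and 7 of these carried AAAGUGC, 6 carried AUUGCAC and 1 carried CGCACUG.
miR-106b-3p: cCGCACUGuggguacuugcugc

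Positions below count from 1 at the 5′ end, with the base of the first-named miRNA first. miR-93-5p and miR-106b-5p differed at 5 of 21 positions compared (C1U, U11A, U12C, C13A and G20A), all outside the seed. miR-17-5p differed from miR-106b-5p at 3 positions (C1U, U10G and G20A) and from miR-93-5p at 4. miR-25-3p and miR-92a-3p differed at 3 positions (C1U, U14C and U18C). These sequences are close outside the seed as well, and how reads that match several miRNAs were assigned is not given in the sources used here.

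On GRCm38, the assembly that mm10 also names, all 3 hairpins lie on the minus strand of chromosome 5 in intron 13 of the Mcm7 transcript with 15 exons, and on the strand of that gene. In the order of transcription they are Mir106b (chr5:138165737-138165818), Mir93 (chr5:138165523-138165610) and Mir25 (chr5:138165321-138165404). They span 498 nt of a 748 nt intron (chr5:138165162-138165909), and none of them overlaps an exon of that transcript. Mcm7 itself covers chr5:138164583-138172422. Because the 4 members are cut from 1 transcript, they are not independent measurements of its production. The Mcm7 messenger RNA was not analysed here.

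One of 2 RefSeq promoter windows of Mcm7 is shown because it holds matches to the E2F motif. It covers chr5:138171834-138172133, GRCm38.p6, minus strand, and motif matches are in capitals. The window lies inside the span given above for Mcm7, so its matches are not upstream of that span.
Mcm7 promoter: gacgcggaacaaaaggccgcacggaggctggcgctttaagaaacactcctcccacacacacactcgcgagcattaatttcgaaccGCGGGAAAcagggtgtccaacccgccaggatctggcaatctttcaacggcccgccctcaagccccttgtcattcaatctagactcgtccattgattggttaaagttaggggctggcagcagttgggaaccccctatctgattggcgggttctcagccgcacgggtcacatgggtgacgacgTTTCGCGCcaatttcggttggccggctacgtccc
The motifs searched on both strands were TTTCCCGC, TTTCGCGC, TTTGCCGC and TTTGGCGC. The window held GCGGGAAA, the reverse complement of TTTCCCGC, at bases 86 to 93, and TTTCGCGC at bases 267 to 274. Of 32851 promoter windows, 744 (2.26%) held at least 1 of these motifs on either strand. The other window of Mcm7 (chr5:138171217-138171516) held none of these letters.

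Values are the authors' log2 levels, quantile normalized so that each rank has nearly the same value in every library, with a floor at a linear level of 10 (3.322 on the log2 scale). A level therefore reports a rank within its library, and equal levels in different libraries come from equal or nearly equal ranks. Differences are tumour minus skin or knockout minus WT, in log2 units. Between 402 and 545 miRNAs were above the floor in tumours and between 370 and 465 in skin, and read depth is unknown. On the first principal component, which carried 55.3% of the variance, WT SCC replicate 2 scored 8.60, nearer to the skin scores of -19.82 to -12.34 than any other tumour (14.03 to 18.81). The labels do not say whether the samples are separate mice, so the p-values speak only of the spread among libraries, part of which may be technical.

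All 4 members stood higher in tumours than in skin. miR-25-3p and miR-93-5p, the abundant guides of the cluster, ranked 24 to 37 and 32 to 53 of 1251 in tumours, against 44 to 53 and 56 to 64 in skin. miR-106b-5p ranked 87 to 114 in tumours and 127 to 157 in skin, and miR-106b-3p 125 to 145 in tumours and 161 to 171 in skin. The order of the 4 members by level was the same in all 12 libraries. Together they held 0.646% to 1.45% of the summed linear level of a tumour library, against 0.382% to 0.502% in a skin library. The order among members is one of measured level only, not of molecules.

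miR-25-3p had log2 levels of 14.99, 15.45, 15.13 and 15.66 in knockout SCC and 15.08 and 14.57 in WT SCC, against 13.86, 14.19 and 14.07 in knockout skin and 13.86, 13.60 and 13.99 in WT skin. Every tumour was above every skin library, with a gap of 0.38 between the lowest tumour and the highest skin. Averaged over genotypes, the difference was 1.14 ± 0.18 (SE, a 2.20-fold rise, adjusted p = 5.0e-04, limma).

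miR-93-5p had log2 levels of 14.82, 14.90, 14.90 and 14.99 in knockout SCC and 14.46 and 13.60 in WT SCC, against 13.08, 13.34 and 13.43 in knockout skin and 13.27, 13.13 and 13.20 in WT skin. Tumours and skin did not overlap, but the gap was the narrowest of the 4 members, 0.16, and WT SCC replicate 2 formed its lower edge. The averaged difference was 1.22 ± 0.17 (SE, 2.33-fold, adjusted p = 2.6e-04, limma).

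miR-106b-5p, which shares the seed of miR-93-5p, had log2 levels of 10.87, 11.64, 11.64 and 11.15 in knockout SCC and 10.98 and 10.71 in WT SCC, against 9.36, 9.78 and 10.23 in knockout skin and 10.27, 10.30 and 9.72 in WT skin. The groups of tumours and skin were 0.42 apart, and skin libraries ranged over almost 1 log2 unit. The averaged difference was 1.14 ± 0.23 (SE, 2.20-fold, adjusted p = 0.00237, limma).

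miR-106b-3p, the opposite arm of the miR-106b hairpin, had log2 levels of 10.11, 10.01, 9.98 and 10.35 in knockout SCC and 10.22 and 9.78 in WT SCC, against 8.94, 9.09 and 9.22 in knockout skin and 9.24, 9.13 and 9.13 in WT skin. Its gap between tumours and skin, 0.54, was the widest of the 4. The averaged difference was 0.93 ± 0.17 (SE, 1.91-fold, adjusted p = 0.00103, limma).

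**Figure D1:**
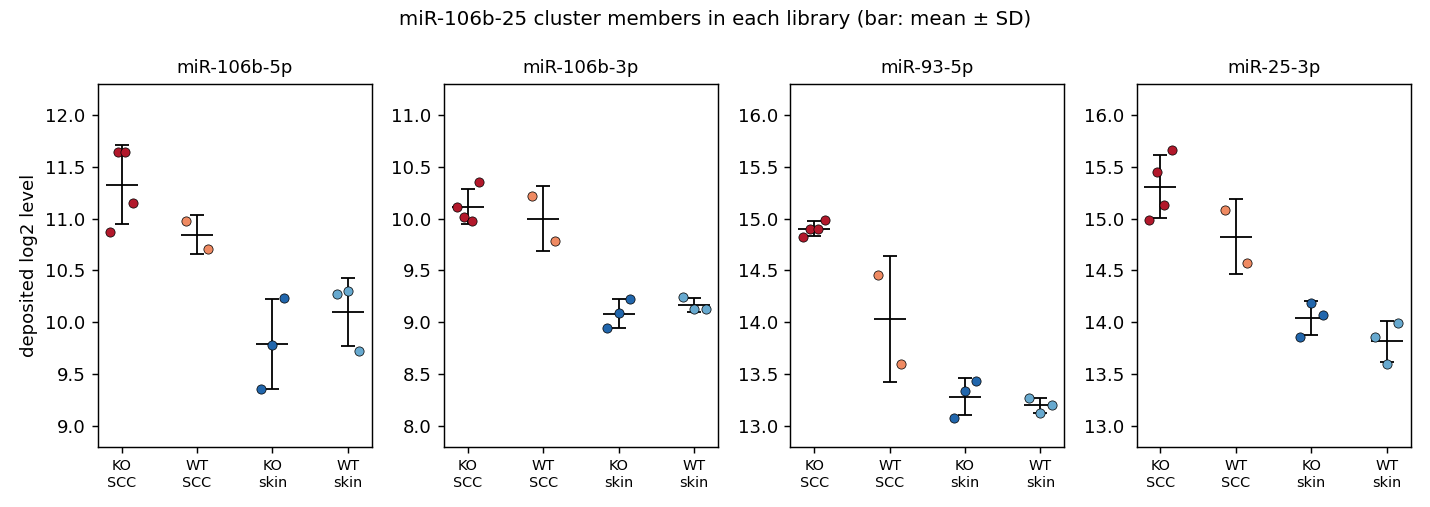
Deposited log2 level of each member in every library (points) with the group mean and SD (bars), for knockout SCC, WT SCC, knockout skin and WT skin. All 6 tumours lie above all 6 skin libraries for each member, and WT SCC replicate 2 is the lowest tumour in each panel.

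Thus 4 of 4 members rose in the averaged comparison, where 228 of 544 tested miRNAs (41.9%) passed the test, 111 of them higher (20.4%) and 117 lower (21.5%). All 544 were ranked by signed difference, called or not. The members were 70th (miR-93-5p), 83rd (miR-106b-5p), 84th (miR-25-3p) and 103rd (miR-106b-3p). They were thus in the upper part of this ranking and not at its head, and many called rises were larger. The median difference was 1.14 over the members and 0.04 over all tested miRNAs. Complete separation of the 6 tumours above the 6 skin libraries, found for all 4 members, was found for 57 of 544 tested miRNAs (10.5%). Scaling by median ratios instead moved the median of all tested miRNAs to 0.16, and the members' differences to between 1.05 and 1.34, with all 4 still called. All 4 were also called in each of the 23 alternative settings, 12 of which left out 1 library.

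Levels of some marker miRNAs of other cells moved between the tissues too. The summed linear level of 4 striated muscle miRNAs was 4740 to 31400 in tumours, below all skin libraries at 66500 to 90000. The summed level of 4 leukocyte miRNAs was 16000 to 61600 in tumours, above all skin in 5 of 6, against 18700 to 25800 in skin. For 3 red cell miRNAs it was 17000 to 96900 in tumours and 35000 to 74800 in skin, but the members differed. miR-451a rose by 2.61 (adjusted p = 0.00126, limma) and miR-144-3p by 2.14 (adjusted p = 0.00178), each with all 6 tumours above all skin and by more than any cluster member, while miR-486-5p differed by -0.69 (adjusted p = 0.193). The summed level of 2 endothelial miRNAs was 59900 to 92500 in tumours and 47400 to 63000 in skin. Keratinocyte markers, 3 in number, summed to 310000 to 569000 in tumours and 269000 to 387000 in skin, and 5 stromal markers to 177000 to 436000 in tumours and 215000 to 692000 in skin. Within the keratinocyte list, miR-205-5p rose by 1.55 (adjusted p = 1.1e-04, limma) with all tumours above all skin, while miR-203-3p differed by -0.60 (adjusted p = 0.0416), a call that ended without WT SCC replicate 2. The averaged comparison called 4 of 4 muscle miRNAs lower and 2 of 4 leukocyte miRNAs higher. It called 1 of 5 stromal miRNAs lower and 1 of 2 endothelial miRNAs higher (0 of 2 without WT SCC replicate 2). Over all 544 tested miRNAs, 20.4% were called higher and 21.5% lower, so the stromal count is near that share. All 21 markers were above the floor in all 12 libraries, and the part of these shifts in the members' rise was not tested. In bulk tissue, more cells that carry a miRNA and more of it per cell cannot be told apart.

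Within knockout mice, the tumour rise was called for 4 of 4 members, against 186 of 544 tested miRNAs (34.2%), with 16.0% higher and 18.2% lower. miR-93-5p rose by 1.62 ± 0.22 (SE, 3.07-fold, adjusted p = 3.7e-04, limma) and miR-106b-5p by 1.53 ± 0.29 (2.89-fold, adjusted p = 0.00271). The rise of miR-25-3p was 1.27 ± 0.23 (2.41-fold, adjusted p = 0.00185), and that of miR-106b-3p was 1.03 ± 0.21 (2.04-fold, adjusted p = 0.00370). All 4 calls held in each of 24 alternative settings.

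Within WT mice, 2 of 4 members were called, where 99 of 544 tested miRNAs (18.2%) were, with 8.82% higher and 9.38% lower. miR-25-3p rose by 1.01 ± 0.27 (SE, 2.01-fold, adjusted p = 0.0249, limma) and miR-106b-3p by 0.83 ± 0.25 (1.78-fold, adjusted p = 0.0413). miR-93-5p differed by 0.82 ± 0.26 (95% interval 0.24 to 1.41, adjusted p = 0.0522) and miR-106b-5p by 0.75 (interval -0.02 to 1.52, adjusted p = 0.177), and neither passed. Only 2 WT tumours entered, and these calls turned on single libraries. Without WT SCC replicate 1 the difference was 0.75 for miR-25-3p (adjusted p = 0.235), 0.61 for miR-106b-3p (adjusted p = 0.291) and 0.39 for miR-93-5p. Without WT SCC replicate 2 the difference of miR-93-5p was 1.26 and passed the test (adjusted p = 0.00795). The call of miR-25-3p also ended without WT skin replicate 1 (1.03, adjusted p = 0.0607) or 2 (0.89, adjusted p = 0.0959). That of miR-106b-3p ended without knockout skin replicate 2 (0.83, adjusted p = 0.0713) or 3 (0.83, adjusted p = 0.0551), and without WT skin replicate 1 (0.87, adjusted p = 0.0876), 2 (0.81, adjusted p = 0.109) or 3 (0.81, adjusted p = 0.0989). Over 24 alternative settings, miR-25-3p was called in 18, miR-106b-3p in 15, miR-93-5p in 5 and miR-106b-5p in 0.

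The genotype comparison asks whether loss of TAp63 goes with another level of the cluster. In tumours no member passed the test, where 1 of 544 miRNAs (0.184%) did. That one was miR-20b-5p, lower in knockout tumours, which entered the test only because both WT tumours were above the floor, while the other 10 libraries were at it. The largest member difference was that of miR-93-5p, which averaged 14.90 ± 0.07 in knockout SCC (SD, n = 4) and 14.03 ± 0.61 in WT SCC (SD, n = 2). All 4 knockout tumours were above both WT tumours, a separation without overlap that 56 of 544 miRNAs (10.3%) showed in either direction. The difference was 0.87 ± 0.25 (SE, 95% interval 0.32 to 1.42) and did not pass (adjusted p = 0.211, limma). It was 1.30 (adjusted p = 0.0609) without WT SCC replicate 1 and 0.44 (adjusted p = 0.523) without WT SCC replicate 2, so its size rested on those 2 libraries. That replicate 2 also had the highest summed level of muscle miRNAs among tumours, 31400 against 4740 to 15900 in the other 5, and what this contributes was not tested.

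The other 3 members overlapped between knockout and WT tumours. miR-25-3p averaged 15.31 ± 0.30 in knockout SCC and 14.82 ± 0.36 in WT SCC (SD, n = 4 and 2), a difference of 0.48 (95% interval -0.08 to 1.05). For miR-106b-5p the averages were 11.32 ± 0.38 in knockout SCC and 10.84 ± 0.19 in WT SCC, a difference of 0.48 (interval -0.25 to 1.21). miR-106b-3p averaged 10.11 ± 0.17 in knockout SCC, within the range of the WT tumours (9.78 and 10.22), with a difference of 0.11 (interval -0.41 to 0.64). The intervals reach differences of 2-fold or more for miR-25-3p and miR-106b-5p, so the data do not show equal levels.

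In untreated skin 0 of 4 members were called, and limma called 0 of 544 miRNAs (0%) with 31 at an unadjusted p under 0.05, none of them a member. Weighting libraries by quality raised that count to 22 of 544, again with no member. miR-25-3p averaged 14.04 ± 0.17 in knockout skin and 13.82 ± 0.20 in WT skin, a difference of 0.22 (95% interval -0.31 to 0.76, SD and n = 3 in each). miR-93-5p averaged 13.28 ± 0.19 in knockout skin and 13.20 ± 0.07 in WT skin, a difference of 0.08 (interval -0.44 to 0.60). miR-106b-5p averaged 9.79 ± 0.44 in knockout skin and 10.10 ± 0.33 in WT skin, a difference of -0.30 (interval -1.0 to 0.39). miR-106b-3p averaged 9.08 ± 0.14 in knockout skin and 9.17 ± 0.06 in WT skin, a difference of -0.08 (interval -0.58 to 0.41). All 4 members overlapped between the genotypes, while 65 of 544 miRNAs (11.9%) did not overlap in skin.

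Whether the tumour rise differed between genotypes was tested by the interaction, the knockout rise minus the WT rise. It was positive for all 4 members and passed for 0 of 4, with 0 of 544 called and 41 at an unadjusted p under 0.05. It was 0.79 for miR-93-5p (95% interval 0.03 to 1.55, adjusted p = 0.560), 0.78 for miR-106b-5p (interval -0.22 to 1.79), 0.26 for miR-25-3p (interval -0.52 to 1.04) and 0.20 for miR-106b-3p (interval -0.53 to 0.92). Without WT SCC replicate 2 the interaction was 0.36 for miR-93-5p and -0.02 for miR-106b-3p. The calls in knockout and not in WT mice for miR-93-5p and miR-106b-5p are therefore not shown to be a difference between genotypes.

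**Figure D2:**
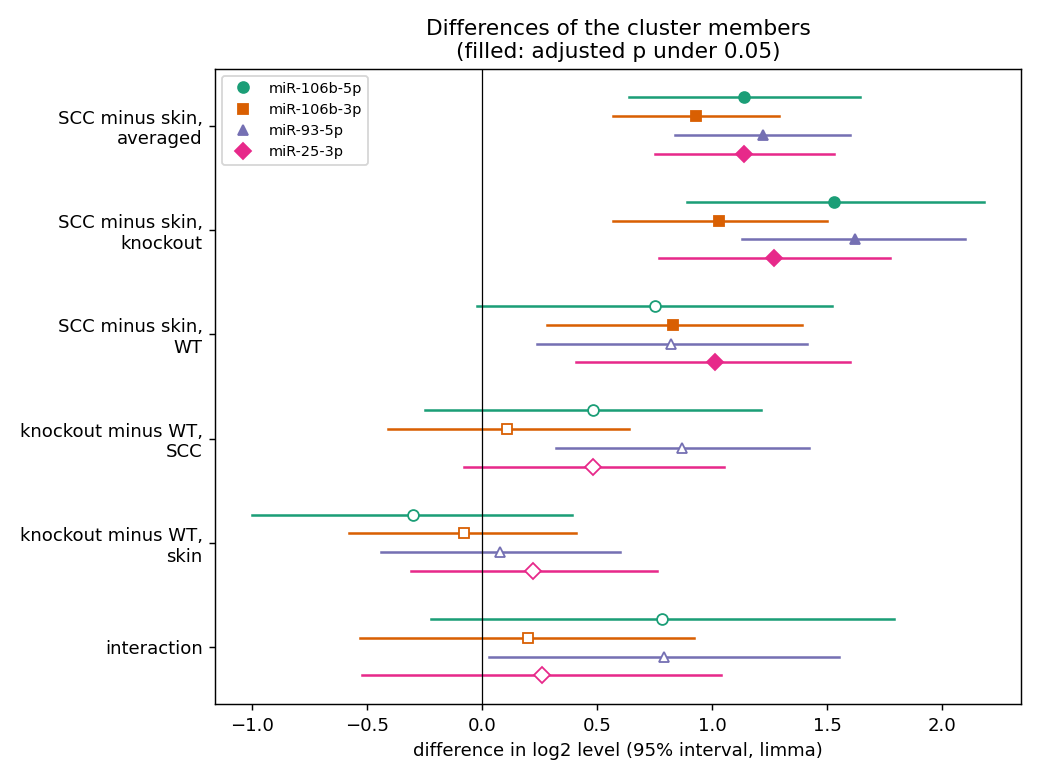
Differences in log2 level with 95% intervals from limma for the 4 members in 6 comparisons, with filled points where the adjusted p was under 0.05. All 4 points are filled in the averaged and knockout rises, 2 of 4 in the WT rise, and 0 in the genotype comparisons and the interaction.

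Ordered by group mean, knockout SCC was highest and WT SCC next for each member. Skin followed, with knockout above WT for miR-25-3p and miR-93-5p and WT above knockout for both miR-106b arms. Neighbours within a tissue did not differ by the test, and WT SCC against knockout skin was not tested as a pair, since both genotype and tissue differ.

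The balance among members was examined within each library. A factor common to a library cancels in these differences, but the value that quantile normalization gave to each rank does not. In tumours miR-25-3p made up 50.5% to 61.9% of the summed linear level of the 4 members, against 53.4% to 61.2% in skin. The share of miR-93-5p was 31.6% to 44.8% in tumours and 34.1% to 38.7% in skin. miR-106b-5p held 2.58% to 4.51% in tumours and 2.66% to 5.43% in skin, and miR-106b-3p held 1.30% to 2.24% in tumours and 1.79% to 2.42% in skin. The ranges of all 4 shares overlapped between tissues.

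Of the 6 pairwise log2 differences between members, none differed between the 6 tumours and the 6 skin libraries after adjustment over the 6 pairs (2-sided exact permutation tests). The smallest p belonged to miR-93-5p minus miR-106b-3p. It was 4.71, 4.88, 4.91 and 4.64 in knockout SCC and 4.24 and 3.82 in WT SCC, against 4.00 to 4.25 in the 6 skin libraries. The 4 knockout tumours were above all other libraries, and the WT tumours lay within or below the skin range. The tissue difference was 0.42, with an exact permutation p of 0.0498 and an adjusted p of 0.299. All 6 pair tests pooled the genotypes, with knockout libraries 4 of the 6 tumours but 3 of the 6 skin libraries. Genotype therefore enters these differences, which are weighted otherwise than those averaged over genotypes.

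Between the arms of the miR-106b hairpin, the 5p arm exceeded the 3p arm by 0.76, 1.62, 1.65 and 0.80 in knockout SCC and by 0.75 and 0.93 in WT SCC, against an average of 0.82 ± 0.30 in skin (SD, n = 6). Knockout SCC replicates 2 and 3 stood above the other tumours by this measure. The tumour average was 1.09 ± 0.43 (SD, n = 6), 0.27 above skin (exact permutation p = 0.249, adjusted p = 0.429). miR-25-3p exceeded miR-93-5p by 0.54 ± 0.30 in tumours and 0.69 ± 0.15 in skin (SD, n = 6 each, exact permutation p = 0.286). It exceeded miR-106b-5p by 3.98 ± 0.34 in tumours and 3.99 ± 0.49 in skin (SD, n = 6 each), the closest match between tissues of the 6 pairs.

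**Figure D3:**
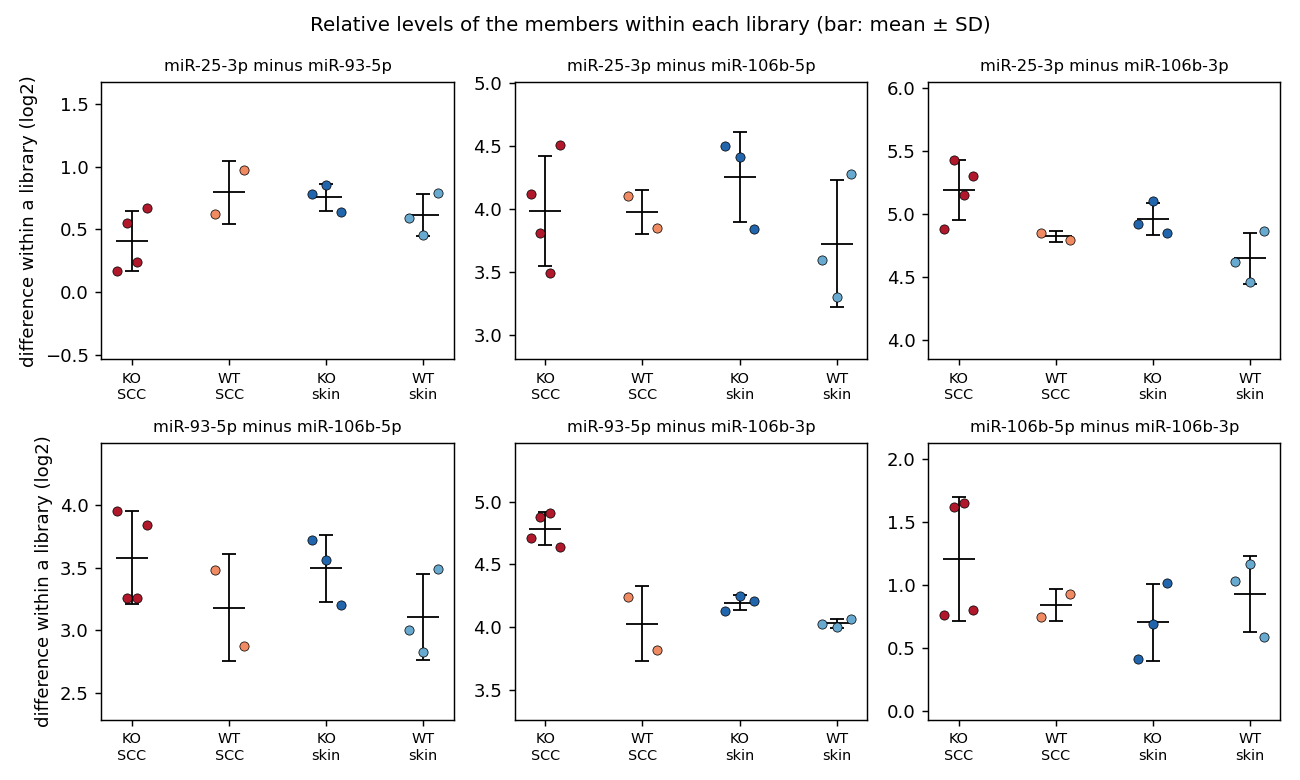
Within-library differences in log2 level between the 6 pairs of members in every library (points) with the group mean and SD (bars), for knockout SCC, WT SCC, knockout skin and WT skin. The points for miR-93-5p minus miR-106b-3p are highest in knockout tumours, at 4.64 to 4.91, and all 6 pairs overlap between tissues.

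The 2 remaining arms of the hairpins have rows of their own outside the rule. miR-93-3p, the passenger arm of miR-93, had log2 levels of 5.90, 6.65, 6.58 and 7.06 in knockout SCC and 5.80 and 6.08 in WT SCC, against the floor, 4.93 and 4.06 in knockout skin and 5.11, 5.19 and 5.01 in WT skin. All tumours were above all skin, as for 10.5% of the 544 tested miRNAs. All knockout skin was below all WT skin, and 11.9% of the 544 did not overlap between skin genotypes in either direction. The skin levels lay at or near the floor, so the sizes of these differences are uncertain. Its averaged rise was 1.64 ± 0.33 (SE, adjusted p = 0.00218, limma), and the skin difference between genotypes, -1.0 ± 0.45, did not pass (adjusted p = 0.837).

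miR-25-5p, the passenger arm of miR-25, had log2 levels of 5.12, 5.88, 5.57 and 5.77 in knockout SCC and 5.22 and the floor in WT SCC, against the floor, 4.41 and 4.49 in knockout skin and 4.48, 4.54 and 5.57 in WT skin. Tumours and skin overlapped, and 1 WT tumour and 1 knockout skin library were at the floor. Its averaged difference, 0.46 ± 0.41 (SE), did not pass (adjusted p = 0.397, limma). With values at the floor in both tissues, the direction in which the floor moves this difference cannot be given. Within knockout mice miR-25-5p was called higher in tumours, by 1.51 ± 0.52 (SE, adjusted p = 0.0432, limma). Within WT mice it differed by -0.59 (adjusted p = 0.580), and the interaction of 2.11 did not pass (adjusted p = 0.560). These levels are near the floor.

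The miRNAs that share a seed with the cluster were followed as lists of names. Counts in them are given over miRNAs above the floor in at least 1 library of every group, a limit added after the values were seen. Over all 406 such miRNAs, 23.2% rose in the averaged comparison, 18.2% in knockout mice and 9.36% in WT mice, and the median averaged difference was -0.07. The miR-17 seed list had 6 rows, with miR-6383, a further row with this seed, left out and not tested. In it 4 met the limit, 2 of them cluster members, and all 4 rose in the averaged comparison, with a median of 1.30. miR-17-5p rose by 1.38 ± 0.25 (SE, adjusted p = 0.00137, limma) and miR-20a-5p by 1.69 ± 0.23 (adjusted p = 1.7e-04). miR-20b-5p is not counted, since it exceeded the floor in 2 libraries, both of them WT tumours (log2 levels of 4.32 and 5.04). miR-106a-5p was above the floor in 1 library and was not tested. In knockout mice 4 of the 4 rose (median 1.71) and in WT mice 1 (median 0.90), which was miR-20a-5p, and 2 without WT SCC replicate 2.

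In the miR-25 and miR-92 seed list of 6 rows, 5 met the limit, and 3 rose and 1 fell in the averaged comparison, with a median of 0.74. miR-92a-3p rose by 2.81 ± 0.30 (SE, 7.04-fold, adjusted p = 3.9e-05, limma), and its interval of 2.16 to 3.47 lay above that of miR-25-3p, 0.75 to 1.53. miR-32-5p rose by 0.74 (adjusted p = 0.0207) and miR-92b-3p fell by 1.11 (adjusted p = 0.0283), while miR-363-3p differed by 0.01 (adjusted p = 0.987) and miR-367-3p was at the floor in all 12 libraries. In knockout mice 3 of these 5 rose and 1 fell, with a median of 1.27, and in WT mice 2 rose and 0 fell, with a median of 0.60. Of the 15 other rows of the paralogous miR-17-92 and miR-106a-363 clusters, 10 were tested and 7 met the limit, of which 7 rose in the averaged comparison, with a median of 1.41. Among them miR-18a-5p rose by 2.59, miR-19a-3p by 2.18 and miR-92a-1-5p by 1.41, and miR-18b-5p, outside the limit since all WT skin was at the floor, differed by 0.30 without passing. In knockout mice 5 of the 7 rose and in WT mice 2 (1 of 7 without WT SCC replicate 2, where 10.1% of the 406 rose). Without WT SCC replicate 2, an alternative added after the values were seen, the averaged counts higher were 4, 2 and 6 in the miR-17 seed, miR-25 and miR-92 seed and paralogous lists.

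The share of each seed family's summed linear level that came from the cluster was computed after values had been seen. Tests of it pooled the genotypes unless stated otherwise. For the miR-17 seed, the cluster supplied 83.0% ± 4.64 in tumours and 85.0% ± 3.43 in skin (SD, n = 6 each), and the ranges of 74.4% to 87.8% in tumours and 80.0% to 88.4% in skin overlapped (exact permutation p = 0.455). The summed level of that family was 18900 to 42700 in tumours and 10500 to 14500 in skin. For the other seed, miR-25-3p supplied 27.5% ± 5.54 in tumours and 52.6% ± 10.6 in skin (SD, n = 6 each).

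Every tumour had a smaller miR-25 share than every skin library, 22.3% to 34.3% in tumours against 41.1% to 65.0% in skin. The difference of -25.1 percentage points had a 2-sided exact permutation p of 0.00216, the smallest that 6 against 6 libraries can give (0.00433 adjusted over the 2 families). miR-25-3p itself was higher in tumours, by 1.14 in log2 level, and miR-92a-3p, in the same sum, by 2.81. The share is built from these same levels, so its p-value is not separate support. The sum of that family was 105000 to 226000 in tumours and 19100 to 44900 in skin. The share of miR-25-3p was 41.1%, 41.5% and 52.8% in knockout skin and 65.0%, 64.9% and 50.3% in WT skin. Among knockout libraries alone the difference was -16.8 points (exact permutation p = 0.0571, the smallest that 4 against 3 can give, 0.114 adjusted), again without overlap.

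**Figure D4:**
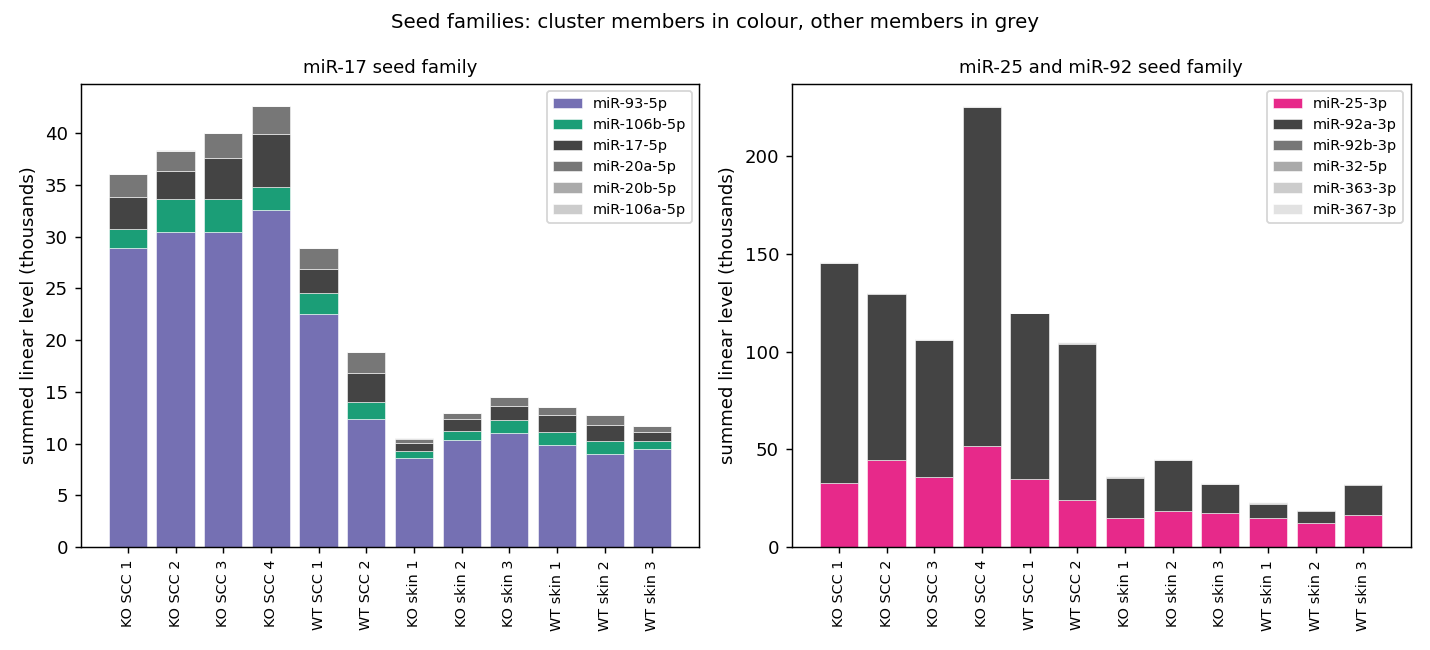
Summed linear level (axis scaled as its label says) of the miRNAs of each seed family, stacked in 1 bar per library for knockout SCC, WT SCC, knockout skin and WT skin, with cluster members in colour and other miRNAs in grey. Cluster members fill 74.4% or more of each bar on the left, while on the right miR-25-3p fills 22.3% to 34.3% of the tumour bars and 41.1% to 65.0% of the skin bars.

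Likeness to other miRNAs was measured as the root mean square difference between log2 profiles over the 12 libraries, each centred on its own mean. The 301 candidates were above the floor in all 12 libraries. Rows of the cluster, its other arms, both seed lists and the paralogous clusters were left out of the candidates. Seed relatives and paralogs could therefore not appear among the neighbours named here, however near they lay. The nearest to miR-106b-3p and to miR-25-3p was miR-103-3p, at 0.14 and 0.18. Next came miR-27a-3p (0.24) and miR-30e-5p (0.26) for miR-106b-3p, and by miR-149-5p (0.25) and miR-872-3p (0.26) for miR-25-3p. The nearest to miR-93-5p were miR-872-3p (0.24), miR-103-3p (0.30) and miR-149-5p (0.33). The nearest to miR-106b-5p were miR-98-5p (0.23), miR-345-5p (0.31) and miR-151-3p (0.34). The median distance over the 301 candidates was 0.87 to 1.05, depending on the member. Between members the distances were 0.23 (miR-25-3p and miR-93-5p) to 0.38 (miR-106b-5p and miR-25-3p). All distances between members were below these medians. Each member except miR-93-5p had a nearer neighbour among the 301 candidates than within the cluster, and miR-93-5p was nearest to miR-25-3p. With 301 candidates set against so few members, that does not tell whether the members vary together. The distances share the tissue difference of all 12 libraries and are a description only.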

How the data were processed

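The measurements were log2 values in a table deposited by the authors (1251 miRNAs in rows, 12 samples in columns named by title). Per the submitters' processing notes mm10 was the build. The aligner and counter were not given in the sources used here. The values show that the columns had been quantile normalized (linear sums of 6065014 to 6065621) and set to a floor of 10. Read depth is not kept by these values, so no counting interval is given. limma 3.58.1 (R 4.3.3; trended, robust) was fitted to the deposited log2 values of those 544 miRNAs that exceeded the floor in 2 or more libraries, with 4 group means. P-values were adjusted by Benjamini-Hochberg over the 544 in each comparison, and calls were made at an adjusted p under 0.05. The fit was tested on simulated data. Differences within a library were compared with exact permutation tests in scipy 1.17.1. Sequences came from RefSeq (GRCm38.p6) and loci from GENCODE M21. Replicates are numbered in accession order. The members, lists and rules were chosen with earlier results of these data known. Named are the members, the other arms, miRNAs of the same seeds and paralogous clusters, and the 3 miRNAs nearest in likeness to each member.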

Additional observations from a re-analysis of the deposited data

How the results depend on the processing

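The averaged and knockout tumour rises kept their direction and call for all 4 members in every alternative run. In WT mice, miR-93-5p passed with a filter of 1 library (0.82), median-ratio scaling (0.97), a new quantile normalization (0.83) and quality weights (0.83). miR-106b-3p and miR-25-3p did not pass with no filter (0.83 and 1.01) or with only the compared groups (0.83 and 1.01). Leaving out 1 library gave WT rises of 0.61 to 1.05 for miR-106b-3p, 0.39 to 1.26 for miR-93-5p and 0.75 to 1.26 for miR-25-3p. It gave -0.11 to 0.34 for miR-106b-3p between tumour genotypes and -0.02 to 0.42 for its interaction. Title numbers shared by tumours and skin join libraries of different ages and not always of the same genotype, so they do not consistently mark pairs. Deviations of same-numbered libraries from their group means correlated at -0.146 to 0.075. With the title number as a replicate block, the WT rise was 0.81 for miR-106b-3p and 1.09 for miR-25-3p, neither called, and 123 miRNAs were called in knockout and 41 in WT mice. The same replicate block turned uncalled knockout minus WT differences to -0.03 (miR-93-5p, skin), -0.38 (miR-25-3p, skin) and -0.10 (miR-25-3p, SCC).

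Called miRNAs in the WT rise numbered 57 with no filter and 62 with only the compared groups. Between skin genotypes they were 1 with a filter of all 12 libraries and 22 with quality weights. Between tumour genotypes they were 0 under that filter, no filter, only the compared groups and the block, and 2 without the trend. Leaving out 1 library gave 32 to 118 calls in WT, 0 to 2 between skin genotypes, 1 to 13 between tumour genotypes and 0 to 11 for the interaction. Results added after the values were seen also moved. The miR-25 share of its seed family was -16.8 points, not called, in knockout libraries alone, and 1 member of the paralogous clusters was called in WT without WT SCC replicate 2. Counted over all tested miRNAs, not only those above the floor in every group, 5, 3 and 7 members of the miR-17 seed, miR-25 and miR-92 seed and paralogous lists rose in the averaged comparison. Depth is unknown, and only 2 WT tumours enter the comparisons that use them.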
